A study of Homo sapiens and Mus musculus with 24 samples.

Results

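Expression of 10 brush border genes was followed in Caco-2 cells that had lost or regained DNMT3A and in colonic epithelium of mice without it. The members were fixed by name: the digestive hydrolases SI, ANPEP, DPP4, ALPI, TREH and MEP1A, the intermicrovillar cadherins CDHR2 and CDHR5, and the actin bundlers VIL1 and PLS1. All 10 were found among the 58051 human gene identifiers, and 9 among the 29307 mouse genes, since no mouse gene is named SI. Its mouse ortholog, Sis, is given beside the others.

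RNA-seq was performed on Caco-2, a human colorectal carcinoma line with enterocyte features, as WT cells (4 libraries), as ΔDNMT3A cells in which DNMT3A was deleted with CRISPR-Cas9 (4 libraries), and as ΔDNMT3A cells that had received a tagged DNMT3A1 or DNMT3A2 coding sequence in a piggyBac vector. Of the isoform lines, 3 DNMT3A1 libraries and 4 libraries labelled DNMT3A2 were analysed, and replicate 3 of DNMT3A1 was not analysed here. ΔDNMT3A and both isoform lines were grown from single clones, the isoform lines under puromycin, so the effect of an allele or isoform and the traits of a clone cannot be told apart. Mouse colonic epithelial cells, purified by EpCAM, came from 4 *Dnmt3a* fl/fl mice and 4 *Dnmt3a* ΔIEC mice at steady state. Both carry loxP-flanked *Dnmt3a*, and ΔIEC mice also carry Villin-Cre, in which the promoter of *Vil1*, itself one of the genes studied, drives Cre. The mice were adult animals, for which the labels give no age.

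The brush border is the carpet of microvilli on the luminal face of an enterocyte. Each microvillus has a core of actin filaments bundled by villin and plastin 1, and neighbouring tips are held together by a link between the cadherins CDHR2 and CDHR5. The membrane carries anchored hydrolases that finish the digestion of sugars and peptides. These genes rise as enterocytes leave the crypt and mature, and sucrase-isomaltase and lactase mark the small intestine more than the colon. DNMT3A methylates cytosine in DNA de novo, mainly at CpG sites, and its isoforms DNMT3A1 and DNMT3A2 differ at the N terminus.

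Each Caco-2 library held 22104408 to 42161299 reads counted on genes, and each mouse library held 16943626 to 24921248. Levels are given as CPM, the counts scaled to 1000000 reads on TMM library sizes. Among epithelial markers, all 6 (EPCAM, CDH1, KRT8, KRT18, KRT19, KRT20) were present in both species, with summed levels of 7924 to 12120.0 CPM in Caco-2 and 9792 to 13910.0 CPM in mice. Of the colonocyte markers, CA1 and AQP8 had at most 3 counts in every Caco-2 library, while GUCA2A, SLC26A3 and KRT20 were present at low levels, and of the goblet markers, MUC2 and CLCA1 had at most 3 counts while TFF3 had means of 3.83 to 7.21 CPM over the lines. DNMT3A stood at 63.6, 61.9, 67.1 and 65.7 CPM in WT and at 22.3, 20.7, 20.6 and 19.3 CPM in ΔDNMT3A. DNMT3A1 libraries held 36.6, 39.03 and 38.3 CPM, whereas the libraries labelled DNMT3A2 held 20.1, 22.3, 23.5 and 21.7 CPM, no higher than ΔDNMT3A (log2 fold change 0.07, standard error 0.057, edgeR adjusted p = 0.272). DNMT3A RNA was thus not raised in these libraries, which are called by their label throughout. The paper reports, from immunoblots, that both isoforms were re-expressed as protein, and protein was not measured here. In mice, *Dnmt3a* fell from 84.6, 98.4, 90.7 and 102 CPM to 47.1, 46.1, 49.6 and 41.7 CPM (log2 fold change -1.03, edgeR adjusted p = 0.000763). A single mouse library stood apart: *Dnmt3a* fl/fl replicate 2 had 18.4 summed CPM of 6 small intestine markers, against 156.7 to 237.7 CPM in the others, and 289.5 CPM of distal colon markers, against 116.9 to 227.5 CPM of the same 2 genes.

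The promoters of these genes differ widely in CpG, the dinucleotide that DNMT3A methylates. RefSeq windows of 300 bases (GRCh38.p14, from 250 bases before to 50 after a start) were held for 7 of the 10 genes, all but MEP1A, CDHR5 and VIL1, as 11 windows. Shown are the windows of genes that moved far between the lines, from no CpG to many, with every CpG in capitals.
SI (chr3:165078447-165078746, minus strand): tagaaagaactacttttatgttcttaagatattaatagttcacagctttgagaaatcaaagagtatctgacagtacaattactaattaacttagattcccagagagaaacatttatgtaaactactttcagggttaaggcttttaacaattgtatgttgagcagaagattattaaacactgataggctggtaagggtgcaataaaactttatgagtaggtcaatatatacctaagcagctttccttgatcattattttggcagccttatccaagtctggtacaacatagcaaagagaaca
TREH (chr11:118679601-118679900, minus strand): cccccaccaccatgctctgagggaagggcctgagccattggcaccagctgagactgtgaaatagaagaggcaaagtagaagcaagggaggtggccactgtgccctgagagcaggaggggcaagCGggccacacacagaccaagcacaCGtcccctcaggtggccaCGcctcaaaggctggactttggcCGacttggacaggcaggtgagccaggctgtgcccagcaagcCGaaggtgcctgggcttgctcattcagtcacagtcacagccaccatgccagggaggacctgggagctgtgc
ANPEP, start nearer the coding sequence (chr15:89806579-89806878, minus strand): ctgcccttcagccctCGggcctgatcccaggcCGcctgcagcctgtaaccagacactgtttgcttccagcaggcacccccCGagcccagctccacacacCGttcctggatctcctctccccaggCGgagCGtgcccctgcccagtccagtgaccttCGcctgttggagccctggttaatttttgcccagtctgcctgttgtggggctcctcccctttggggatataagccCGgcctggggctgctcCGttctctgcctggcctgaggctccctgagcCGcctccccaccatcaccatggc
DPP4 (chr2:162074166-162074465, minus strand): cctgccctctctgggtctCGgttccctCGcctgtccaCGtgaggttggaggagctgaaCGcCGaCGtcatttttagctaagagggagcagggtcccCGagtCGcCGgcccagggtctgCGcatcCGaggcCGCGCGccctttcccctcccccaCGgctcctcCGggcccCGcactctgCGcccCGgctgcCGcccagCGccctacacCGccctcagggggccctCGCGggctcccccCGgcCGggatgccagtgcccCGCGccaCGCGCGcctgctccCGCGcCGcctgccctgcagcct

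The SI window held 0 CpG and 32.7% G+C, and 4.0% of the 35116 windows of the table held none. TREH held 5 CpG, the printed ANPEP window 10 and DPP4 34, whereas the median window held 14. A second, upstream ANPEP window held 32. ALPI had 7, the CDHR2 windows had 10 and 11, and PLS1 had 24 at its first start and 0 at both later ones. Several motifs of enterocyte transcription factors were searched on both strands. The CDX motif TTTATG (10.6% of windows) matched SI at 236, 139 and 43 bases upstream of the start, and matched both later PLS1 windows. The HNF4 motif, CAAAGTCCA (0.384% of windows), matched TREH 73 bases upstream. The letters AGATAA, bound by GATA factors (10.3% of windows), matched the first and last PLS1 windows, and the TATA box letters, found in 11.5% of windows as TATAAA, matched none of the 11 windows. A match is a description of letters, and binding was not measured here.

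Levels can be compared between genes only per length of exon. In WT Caco-2 cells, VIL1 was the most abundant of the 10 with 91.2 ± 1.43 CPM per kilobase (SD, n = 4), followed by DPP4 with 75.3 ± 0.480. CDHR5 (11.2 ± 0.566) and ALPI (10.9 ± 0.491) lay within their spread of each other, as did MEP1A (8.19 ± 0.480) and PLS1 (7.98 ± 0.217). SI had 2.68 ± 0.103 and ANPEP 1.29 ± 0.0890, and the lowest were CDHR2 (0.213 ± 0.0303) and TREH (0.200 ± 0.0528), which did not separate. The order in *Dnmt3a* fl/fl colon was another one: the cadherins *Cdhr5* (641 ± 97.0 CPM per kilobase, n = 4) and *Cdhr2* (585 ± 81.6) led, ahead of *Vil1* (329.7 ± 33.1), *Mep1a* (245 ± 49.6) and *Pls1* (148 ± 27.6). *Alpi* followed (21.2 ± 4.78), then *Dpp4* (4.53 ± 0.756), *Sis* (3.75 ± 2.93) and *Anpep* (1.48 ± 1.23), with *Treh* lowest (0.261 ± 0.127). The spread of *Sis* covered both *Dpp4* and *Anpep*. CDHR2 was therefore near the bottom of the order in Caco-2 and near the top in mouse colon. DPP4 came next after VIL1 in Caco-2, and in mouse colon it lay below *Alpi* and above *Anpep* and *Treh*. The species differ also in line, tissue and strand setting of the counts, and no test was made between them.

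**Figure D1:**
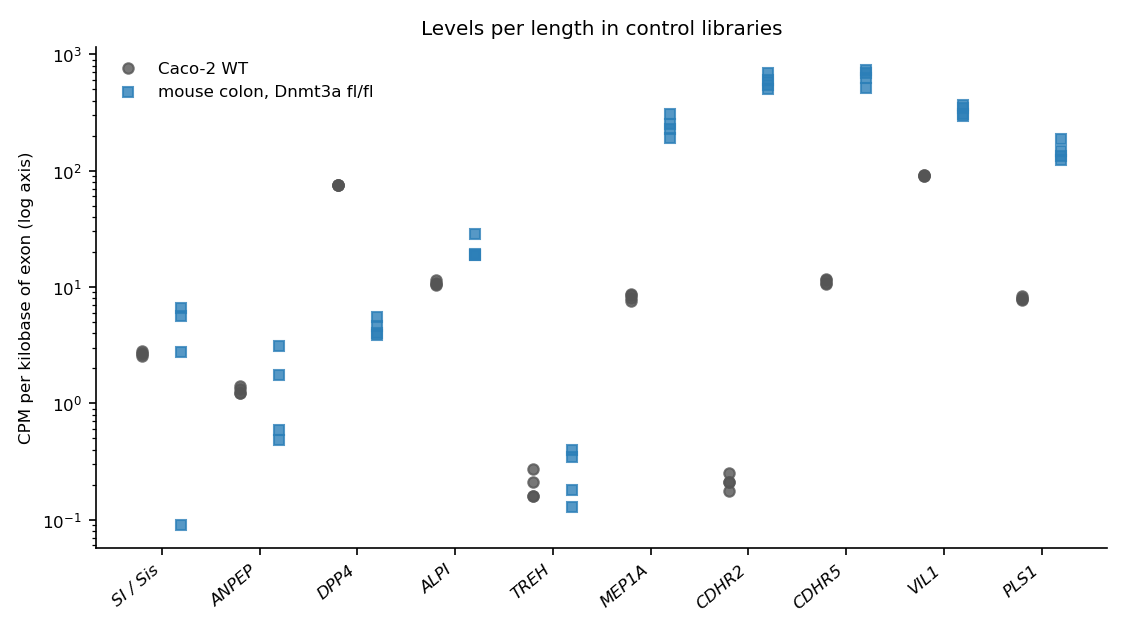
CPM per kilobase of exon (log axis) for each gene in the 4 WT Caco-2 libraries (circles) and the 4 *Dnmt3a* fl/fl mouse libraries (squares), 1 symbol per library. CDHR2 lies near 0.213 in Caco-2 and near 585 in mouse colon, while DPP4 lies near 75.3 and 4.53, and *Sis* of fl/fl replicate 2 lies far below the other 3.

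The first comparison asked what the loss of DNMT3A did to these genes in Caco-2 cells. In ΔDNMT3A against WT, 7 of 10 rose, led by CDHR2 and MEP1A, while SI fell. Over all 16654 genes tested, 31.2% rose and 31.0% fell, so calls in both directions were common. The median log2 fold change of the 10 was 0.37, beside -0.005 over all genes. A rise of at least 1 on the log2 scale was seen for CDHR2 and MEP1A, 2 of 10, beside 4.73% of genes. Some markers of cell state moved between the same lines. Of the 6 epithelial markers, 5 rose in ΔDNMT3A, with KRT20, a keratin of mature enterocytes, highest: its mean went from 1.03 CPM (WT) to 16.1 CPM (ΔDNMT3A), and DNMT3A1 had 1.82 CPM and the libraries labelled DNMT3A2 0.743 CPM. LGR5, a stem cell marker, had means of 34.7, 6.54, 18.6 and 18.4 CPM over these 4 lines in that order, with a fall of -2.42 in ΔDNMT3A against WT (edgeR adjusted p = 2.84e-20), while the stem marker ASCL2 did not pass the threshold there (-0.02, edgeR adjusted p = 0.768). KRT20 also stands among the colonocyte markers, of which 3 were tested in ΔDNMT3A against WT. The others, GUCA2A (-0.28, edgeR adjusted p = 0.167) and SLC26A3 (-0.13, edgeR adjusted p = 0.62), did not pass the threshold. The part of these markers in the brush border values was not tested. In bulk RNA, fewer cells of a kind and less RNA per cell cannot be told apart.

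Of the peptidases, MEP1A (ENSG00000112818, chromosome 6, 46793390 to 46839782, plus strand of GRCh38) encodes meprin A subunit alpha, a metalloendopeptidase. WT libraries held 24.1, 22.5, 25.2 and 25.8 CPM and ΔDNMT3A libraries 48.2, 46.3, 52.03 and 54.7 CPM. The groups did not overlap, and the log2 fold change was 1.03 (standard error 0.051, edgeR adjusted p = 1.21e-14). ANPEP (ENSG00000166825, chromosome 15, 89784889 to 89815401, minus strand), aminopeptidase N, which trims amino acids from the N terminus of peptides, went from 6.45, 5.98, 6.85 and 5.94 CPM to 12.2, 11.1, 12.6 and 12.9 CPM. Every ΔDNMT3A library lay above every WT library (log2 fold change 0.94, standard error 0.074, edgeR adjusted p = 6.57e-11). DPP4 (ENSG00000197635, chromosome 2, 161992241 to 162074542, minus strand), dipeptidyl peptidase 4, which removes dipeptides and cuts incretin hormones, stood at 378, 379, 374 and 379 CPM in WT and at 523, 541, 550.4 and 562 CPM in ΔDNMT3A. The shift was 0.52 on the log2 scale (standard error 0.026, edgeR adjusted p = 2.2e-14), many times the spread within either group.

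The disaccharidases diverged. SI (ENSG00000090402, chromosome 3, 164978898 to 165078495, minus strand), sucrase-isomaltase, which splits sucrose and the branches of starch, had 15.7, 16.2, 17.2 and 16.5 CPM in WT and 12.1, 12.0, 13.6 and 16.0 CPM in ΔDNMT3A. The groups overlapped through ΔDNMT3A replicate 4, and the fitted fall was -0.31 (standard error 0.075, edgeR adjusted p = 0.000964). TREH (ENSG00000118094, chromosome 11, 118657316 to 118679690, minus strand), trehalase, was near the limit of detection, with 14 to 46 counts per library in these groups. It held 0.508, 0.507, 0.861 and 0.668 CPM in WT and 1.10, 0.977, 0.709 and 1.063 CPM in ΔDNMT3A, overlapping ranges with a log2 fold change of 0.59 (standard error 0.23, edgeR adjusted p = 0.0273). This call was lost with DESeq2 (adjusted p = 0.111) and without WT replicate 1 (0.0898) or 2 (0.0792) or ΔDNMT3A replicate 1 (0.0888) or 4 (0.0605) in edgeR.

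ALPI (ENSG00000163295, chromosome 2, 232456123 to 232460032, plus strand), intestinal alkaline phosphatase, which strips phosphate from bacterial lipopolysaccharide, barely moved. Its levels were 28.1, 27.6, 30.5 and 28.2 CPM in WT and 30.5, 30.4, 33.6 and 30.1 CPM in ΔDNMT3A, and the ranges overlapped. The log2 fold change was 0.11 (standard error 0.047, edgeR adjusted p = 0.0432), a call lost with DESeq2 (adjusted p = 0.0952), with a length trend removed (0.162), with no filter on low counts (0.0584), and without WT replicate 1 (0.107), 2 (0.126) or 4 (0.0995) or ΔDNMT3A replicate 3 (0.159). ALPI has similar paralogs beside it, and only reads placed on a single gene were counted, so its level is uncertain to a degree not measured here.

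Of the cadherins, CDHR2 (ENSG00000074276, chromosome 5, 176542511 to 176595974, plus strand) rose and CDHR5 (ENSG00000099834, chromosome 11, 616565 to 626078, minus strand) did not. CDHR2 had 1.13, 0.942, 1.34 and 1.13 CPM in WT and 3.10, 2.43, 3.41 and 3.19 CPM in ΔDNMT3A. Low as they are, the groups were apart (log2 fold change 1.39, standard error 0.15, edgeR adjusted p = 1.28e-08). CDHR5 ran at 41.6, 41.04, 45.4 and 44.8 CPM in WT and 41.6, 40.7, 42.8 and 38.3 CPM in ΔDNMT3A, with overlapping ranges (log2 fold change -0.09, 95% interval from -0.17 to -0.01, edgeR adjusted p = 0.0595). It passed the threshold with the length trend removed (edgeR adjusted p = 0.0185) and without WT replicate 1 (0.0416) or 2 (0.026) or ΔDNMT3A replicate 3 (0.0381).

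Of the actin bundlers, PLS1 rose and VIL1 did not pass the threshold. VIL1 (ENSG00000127831, chromosome 2, 218419092 to 218453295, plus strand), villin, had 625, 620.1, 639.8 and 639 CPM in WT and 654, 646, 666 and 651 CPM in ΔDNMT3A. The difference of 0.04 on the log2 scale (interval from -0.01 to 0.09) did not pass the threshold (edgeR adjusted p = 0.142), although the ranges did not overlap, and it passed with the length trend removed (edgeR adjusted p = 0.0334). PLS1 (ENSG00000120756, chromosome 3, 142596387 to 142713664, plus strand), plastin 1 or I-plastin, rose from 41.8, 43.8, 41.1 and 42.3 CPM to 51.2, 49.2, 49.3 and 50.1 CPM (log2 fold change 0.23, standard error 0.035, edgeR adjusted p = 3.78e-06).

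**Figure D2:**
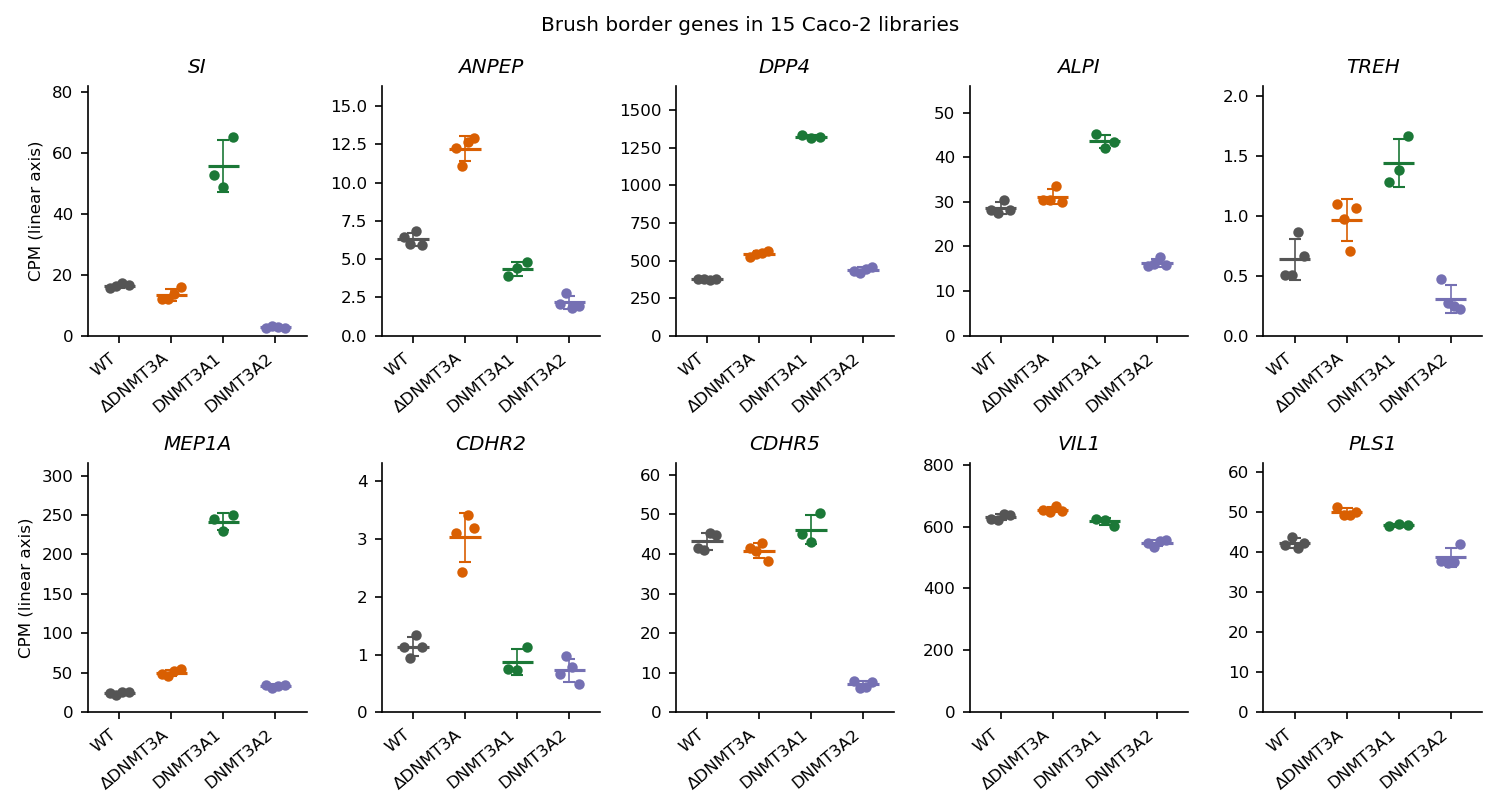
CPM (linear axis from 0) of each gene in the 15 Caco-2 libraries, grouped by line. Points are libraries in replicate order, wide bars are means and whiskers are 1 SD. SI, DPP4 and MEP1A peak in DNMT3A1, at means of 55.5, 1323.5 and 242 CPM, ANPEP and CDHR2 peak in ΔDNMT3A, and CDHR5 drops to 7.05 CPM in the libraries labelled DNMT3A2.

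The isoform lines were then compared with their parent, ΔDNMT3A, to see how each gene stood after an isoform had been put back. In DNMT3A1, 6 of the 10 genes rose (MEP1A, SI, DPP4, TREH, ALPI and CDHR5) and 3 fell (CDHR2, ANPEP and VIL1), beside 30.4% of 16860 genes rising and 30.3% falling. A change of at least 1 on the log2 scale was seen upward in 3 genes, beside 5.18% of all, and downward in 2, beside 3.14% of all. The libraries labelled DNMT3A2 moved otherwise: all 10 genes fell, beside 34.1% of 16431 genes falling and 33.8% rising, and 5 of them (SI, ANPEP, CDHR2, CDHR5 and TREH) fell by at least 1 on the log2 scale, beside 7.47% of all. The median log2 fold change of the 10 was 0.33 in DNMT3A1 and -1.31 in the libraries labelled DNMT3A2, beside 0.014 and 0.004 over all genes. Both comparisons, and that with WT, share the ΔDNMT3A libraries, so the values are given side by side.

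SI had the largest difference of the 10 between the isoform lines. Its DNMT3A1 libraries held 52.8, 48.7 and 65.1 CPM, and the libraries labelled DNMT3A2 held 2.69, 3.18, 2.87 and 2.59 CPM, on either side of ΔDNMT3A with no overlap. Relative to ΔDNMT3A, the log2 fold change was 2.06 in the former (standard error 0.091, edgeR adjusted p = 1.99e-13) and -2.25 in the latter (standard error 0.11, edgeR adjusted p = 6.51e-15). MEP1A reached 245, 229 and 250.3 CPM in DNMT3A1, and stood at 34.9, 30.9, 32.8 and 35.1 CPM in the libraries labelled DNMT3A2. Its changes were 2.27 (standard error 0.045, edgeR adjusted p = 1.08e-18) and -0.59 (standard error 0.049, edgeR adjusted p = 2.34e-10). In DPP4, levels of 1334, 1316 and 1319.5 CPM in DNMT3A1 and of 433, 420.3, 445 and 458 CPM in the libraries labelled DNMT3A2 gave 1.28 (standard error 0.032, edgeR adjusted p = 3.17e-17) and -0.31 (standard error 0.027, edgeR adjusted p = 3.23e-10). For MEP1A and DPP4, as for ALPI and TREH, DNMT3A1 lay further from WT than ΔDNMT3A did, in the same direction.

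ANPEP and CDHR2, which had risen in ΔDNMT3A, were lower in both isoform lines. ANPEP had 3.91, 4.44 and 4.79 CPM in DNMT3A1 and 2.09, 2.81, 1.84 and 1.98 CPM in the libraries labelled DNMT3A2. Against ΔDNMT3A these were changes of -1.47 (standard error 0.088, edgeR adjusted p = 1.9e-11) and -2.51 (standard error 0.10, edgeR adjusted p = 3.09e-16). CDHR2 had 0.755, 0.727 and 1.13 CPM in DNMT3A1 and 0.671, 0.968, 0.778 and 0.486 CPM in the libraries labelled DNMT3A2, on 15 to 40 counts each. Its changes were -1.77 (standard error 0.19, edgeR adjusted p = 1.19e-07) and -2.09 (standard error 0.19, edgeR adjusted p = 7.01e-10), and these 2 lines did not separate from each other.

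CDHR5 fell in the libraries labelled DNMT3A2 by about as much as ANPEP, with ranges that overlapped when single libraries were left out (-2.59 to -2.48 for CDHR5 and -2.64 to -2.44 for ANPEP), beside much smaller changes in the other lines. It held 45.1, 43.05 and 50.4 CPM in DNMT3A1, a rise of 0.18 over ΔDNMT3A (standard error 0.055, edgeR adjusted p = 0.00818) that was lost without DNMT3A1 replicate 4 (0.11, edgeR adjusted p = 0.107). In the libraries labelled DNMT3A2 it held 7.90, 6.13, 6.51 and 7.64 CPM, with a log2 fold change of -2.53 (standard error 0.065, edgeR adjusted p = 6.27e-20). Its partner at the tip link, CDHR2, thus fell in both isoform lines, and CDHR5 only in the libraries labelled DNMT3A2.

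ALPI rose to 45.1, 42.1 and 43.4 CPM in DNMT3A1 (log2 fold change 0.49, standard error 0.050, edgeR adjusted p = 5.24e-08) and fell to 15.6, 16.2, 17.6 and 15.8 CPM in the libraries labelled DNMT3A2 (-0.94, standard error 0.054, edgeR adjusted p = 2.47e-13). TREH had 1.28, 1.38 and 1.66 CPM in DNMT3A1 and 0.474, 0.277, 0.248 and 0.227 CPM in the libraries labelled DNMT3A2, the last on 6 to 12 counts each. The rise of 0.58 in DNMT3A1 (standard error 0.20, edgeR adjusted p = 0.0199) was lost with DESeq2 (adjusted p = 0.099) and without DNMT3A1 replicate 4 (edgeR adjusted p = 0.131) or ΔDNMT3A replicate 3 (edgeR adjusted p = 0.0602), whereas the fall of -1.68 (standard error 0.28, edgeR adjusted p = 1.27e-05) was kept under every alternative run. VIL1 stood at 626, 621 and 603 CPM in DNMT3A1 (-0.09, standard error 0.030, edgeR adjusted p = 0.0178), a call lost without DNMT3A1 replicate 4 (edgeR adjusted p = 0.0747), and at 546, 533, 553 and 556 CPM in the libraries labelled DNMT3A2 (-0.26, standard error 0.021, edgeR adjusted p = 1.21e-10). PLS1 had 46.4, 47.1 and 46.7 CPM in DNMT3A1 (-0.10, interval from -0.18 to -0.01, edgeR adjusted p = 0.0524) and 37.7, 37.4, 37.5 and 42.1 CPM in the libraries labelled DNMT3A2 (-0.37, standard error 0.039, edgeR adjusted p = 1.05e-08). The PLS1 fall in DNMT3A1 passed the threshold with RLE size factors (edgeR adjusted p = 0.0453), with a length trend removed (0.0277), with all 4 lines in 1 fit (0.0392), and without ΔDNMT3A replicate 3 (0.0499).

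**Figure D3:**
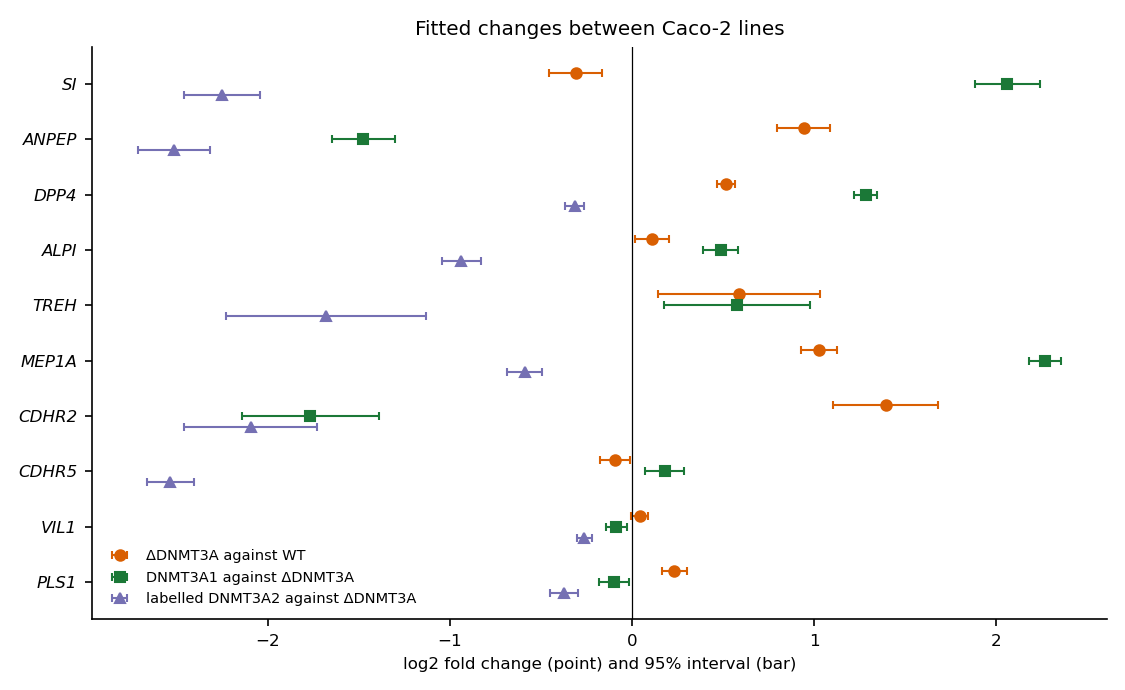
Log2 fold change of each gene (x axis) in ΔDNMT3A against WT (circles), in DNMT3A1 against ΔDNMT3A (squares) and in the libraries labelled DNMT3A2 against ΔDNMT3A (triangles), with bars of the 95% interval. All 10 triangles lie left of 0, from -0.26 for VIL1 to -2.53 for CDHR5, whereas the squares run from -1.77 for CDHR2 to 2.27 for MEP1A.

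A direct test between the isoform lines put 9 of 10 genes higher in DNMT3A1, beside 34.5% of 16637 genes higher and 33.9% lower. SI was 19.9-fold higher (log2 fold change 4.31, standard error 0.098, edgeR adjusted p = 1.75e-22), MEP1A 7.22-fold, CDHR5 6.55-fold, TREH 4.75-fold, DPP4 3.02-fold, ALPI 2.68-fold and ANPEP 2.05-fold, so 7 of 10 differed by at least 1 on the log2 scale, beside 9.17% of genes. PLS1 (1.21-fold) and VIL1 (1.13-fold) also passed the threshold. CDHR2 did not (log2 fold change 0.32, interval from -0.23 to 0.86, edgeR adjusted p = 0.321).

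Against WT, DNMT3A1 had 6 genes higher and 1 lower, beside 32.6% of 17029 genes higher and 32.7% lower. MEP1A was 9.86-fold, DPP4 3.50-fold, SI 3.39-fold and TREH 2.26-fold higher than in WT, ALPI and PLS1 were higher by 0.61 and 0.14 on the log2 scale, and ANPEP was lower (-0.52, edgeR adjusted p = 4.76e-05). CDHR2 (-0.37, interval from -0.81 to 0.08), CDHR5 (0.10, interval from -0.01 to 0.20) and VIL1 (-0.04, interval from -0.10 to 0.03) did not pass the threshold. Of these, CDHR2 passed without DNMT3A1 replicate 4 (-0.62, edgeR adjusted p = 0.0453) and CDHR5 without DNMT3A1 replicate 2 (0.15, edgeR adjusted p = 0.0184) or with the lane as a term (edgeR adjusted p = 0.019). In the libraries labelled DNMT3A2, 2 genes were higher than in WT, MEP1A (0.44) and DPP4 (0.20), and 8 were lower, beside 34.3% of 16360 genes higher and 34.4% lower. CDHR5 (6.17-fold), SI (5.90-fold), ANPEP (2.97-fold) and TREH (2.12-fold) lay furthest below WT. The CDHR2 fall of -0.70 was lost without DNMT3A2 replicate 4 (-0.53, edgeR adjusted p = 0.053).

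Set in order, the lines ranked DNMT3A1, WT, ΔDNMT3A, DNMT3A2 for SI and CDHR5, DNMT3A1, ΔDNMT3A, WT, DNMT3A2 for ALPI and TREH, and DNMT3A1, ΔDNMT3A, DNMT3A2, WT for DPP4 and MEP1A. ANPEP, CDHR2 and VIL1 ranked ΔDNMT3A, WT, DNMT3A1, DNMT3A2, and PLS1 ranked ΔDNMT3A, DNMT3A1, WT, DNMT3A2. The neighbours that did not differ past the threshold were DNMT3A1 and WT for CDHR5, CDHR2 and VIL1, ΔDNMT3A and WT for CDHR5 and VIL1, DNMT3A1 and DNMT3A2 for CDHR2, and ΔDNMT3A and DNMT3A1 for PLS1. The libraries labelled DNMT3A2 were thus the lowest of the 4 lines in mean level for 8 of the 10 genes. How many of all genes had their lowest mean in these libraries was not counted, so this describes the 10 genes only.

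Since the lines are clones, which can carry gained or lost chromosome segments, each gene was set beside the 50 tested genes around it. In ΔDNMT3A against WT, 90.0% of the neighbours of CDHR2 had a log2 fold change above 0, with a median of 0.34 beside 1.39 for CDHR2 itself. The neighbours of SI had a median of 0.30, opposite to SI. In the libraries labelled DNMT3A2 against ΔDNMT3A, only 12.5% of the 48 neighbours of CDHR5, near the end of chromosome 11, lay above 0, with a median of -0.37, while CDHR5 lay at -2.53. The neighbours of SI had a median of -0.37 as well, beside -2.25 for SI. In DNMT3A1 against ΔDNMT3A, the neighbours of CDHR5 had a median of 0.30, above the 0.18 of CDHR5, and those of DPP4 0.27 beside 1.28. Elsewhere in these 3 comparisons the median of the neighbours stayed between -0.19 and 0.15. Copy number was not measured, and its part in these values was not tested.

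**Figure D4:**
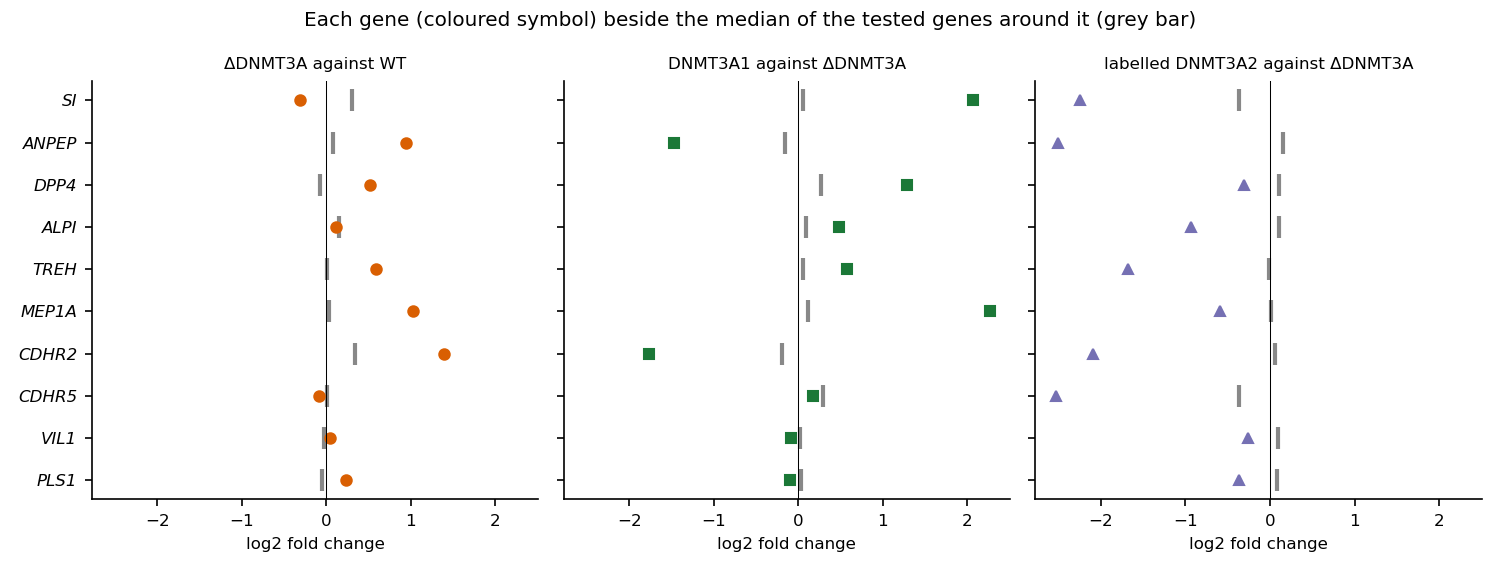
Log2 fold change of each gene (coloured symbol) and the median log2 fold change of the tested genes around it on its chromosome, 25 on each side where the chromosome allows (grey bar), in 3 Caco-2 comparisons. The grey bars stay between -0.37 and 0.34, and the symbols reach from -2.53 to 2.27.

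The rest of the brush border programme was read from lists of related genes, whose counts stand beside 31.2% of all genes rising and 31.0% falling in ΔDNMT3A against WT, 30.4% and 30.3% in DNMT3A1 against ΔDNMT3A, and 33.8% and 34.1% in the libraries labelled DNMT3A2 against ΔDNMT3A. Of 14 other hydrolases, 10 were tested. In ΔDNMT3A against WT, 7 rose and 1 fell, with a median of 0.45; XPNPEP2, an aminopeptidase, was highest (2.12) and ENPEP, glutamyl aminopeptidase, lowest (-1.52). In DNMT3A1 against ΔDNMT3A, 2 rose and 5 fell (median -0.84), with ENPEP highest (1.61) and LCT, lactase, lowest (-2.32). The sugar hydrolases LCT and SI thus moved in opposite directions in DNMT3A1: LCT had means of 9.60 CPM in WT, 26.2 in ΔDNMT3A and 5.17 in DNMT3A1. In the libraries labelled DNMT3A2 against ΔDNMT3A, 0 of the 10 rose and 8 fell (median -0.97), with LCT lowest at -5.06 (0.773 CPM). With no adjustment, 8 of the 10 had p under 0.05, and DESeq2 called 9.

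Of 24 genes for motors, scaffolds and adhesion in the microvillus, all were tested in these 3 comparisons. In ΔDNMT3A against WT, 8 rose and 9 fell (median -0.004), near those shares of all genes, from ESPN, espin, at -0.77 to TMIGD1, an adhesion protein, at 3.40 on a mean of 0.788 CPM. In DNMT3A1 against ΔDNMT3A, 5 rose and 12 fell (median -0.15), with MYO1A, the myosin that ties the core bundle to the membrane, highest at 0.98 and TMIGD1 lowest at -3.27. In the libraries labelled DNMT3A2 against ΔDNMT3A, 4 rose and 20 fell (median -0.45), with FSCN1, fascin, highest at 1.17. TMIGD1 had 0 counts in all 4 libraries labelled DNMT3A2, and was at least 28.5-fold lower against a level of 3 counts over that group. Of 8 transcription factors that drive enterocyte genes, 7 were tested. Of these, 1 rose and 5 fell in ΔDNMT3A against WT, with HNF4G lowest at -2.61 and GATA6 highest at 0.07, 0 rose and 3 fell in DNMT3A1 against ΔDNMT3A (GATA4 highest at 0.06, not past the threshold; 3 with unadjusted p under 0.05 and 3 by DESeq2), and 1 rose and 5 fell in the libraries labelled DNMT3A2 against ΔDNMT3A (GATA4 lowest at -0.65, HNF4G highest at 0.73).

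The genes whose log2 CPM ran most like each of the 10 over the 15 Caco-2 libraries were ranked by Pearson's r. The libraries fall into 4 lines, so r mainly compares 4 means, and many genes reach high values. CDHR5 ran most like USH1C (r = 0.997), which encodes harmonin, the scaffold that binds the tails of the tip-link cadherins. USH1C had 178 ± 3.30 CPM in WT (n = 4), 177 ± 2.24 in ΔDNMT3A (n = 4) and 181 ± 1.62 in DNMT3A1 (n = 3), and 61.8 ± 1.25 CPM in the libraries labelled DNMT3A2 (n = 4), a change of -1.52 against ΔDNMT3A. Next to CDHR5 came FRG1CP (0.994) and KLHL13 (0.993). DPP4 and MEP1A were each other's closest gene (0.998), followed by ARHGAP5 and PAPOLA (both 0.994) for DPP4 and DHRS7 (0.996) and ALDH6A1 (0.994) for MEP1A. SI ran most like LGR4 (0.996), FGG and HIPK3 (both 0.995), and ALPI like SLCO2B1 (0.994), SEMA4F (0.993) and HABP2 (0.992). Lower values were found for ANPEP with CIDEC (0.989), SH3RF2 (0.987) and FAM151A (0.986), and for VIL1 with CTSA, TNFRSF1B (both 0.986) and SPRYD4 (0.984). The weakest were PLS1 with PTK2B (0.973), SGK3 (0.967) and CNOT2 (0.964), CDHR2 with BIRC7 (0.970), LINC02754 (0.969) and RCAN1 (0.960), and TREH with ATRN (0.945), VWA5B2 (0.944) and KAT14 (0.942).

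The mouse comparison asked whether the genes differed in colonic epithelium without *Dnmt3a*. None of the 9 passed the threshold in *Dnmt3a* ΔIEC against *Dnmt3a* fl/fl mice by edgeR or DESeq2, and 0 had an unadjusted p under 0.05 in edgeR, beside 0.691% of 14626 genes past the threshold in either direction. Each of the 9 ranges overlapped between the groups, and the share of all genes with overlapping ranges was not counted. The median log2 fold change was 0.17, beside -0.004 over all genes. Fitted values ran from -0.72 for *Anpep* to 0.40 for *Treh*, and the count of 0 stayed at 0 without *Dnmt3a* fl/fl replicate 2.

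*Vil1* (ENSMUSG00000026175) stood at 1098, 1218, 1054 and 1313 CPM in fl/fl and at 1054, 1279, 1562 and 1617 CPM in ΔIEC mice, a difference of 0.24 on the log2 scale (interval from -0.08 to 0.55, edgeR adjusted p = 0.538). Reads were counted without strand, so where *Usp37* (a mean of 57.7 CPM) overlaps it on the other strand, reads of the 2 genes cannot be told apart. *Cdhr2* (ENSMUSG00000034918) had 2231, 2850.4, 2085 and 2502 CPM in fl/fl and 1864, 2154, 3028 and 3006 CPM in ΔIEC mice (0.06, interval from -0.32 to 0.43, edgeR adjusted p = 0.928). *Cdhr5* (ENSMUSG00000025497) had 1714, 2019, 1406 and 1889.8 CPM in fl/fl and 1484, 1728, 2398 and 2287 CPM in ΔIEC mice (0.17, interval from -0.20 to 0.54, edgeR adjusted p = 0.727). In these 3 genes, and in *Mep1a* and *Pls1*, ΔIEC replicates 3 and 4 were the highest of the 8 libraries or within the 3 highest, and ΔIEC replicate 1 and fl/fl replicate 3 the lowest 2. The summed level of 7 proliferation genes ran the other way: it was 345.9 and 385.5 CPM in ΔIEC replicates 3 and 4, and 663.3 and 846.8 CPM in ΔIEC replicate 1 and fl/fl replicate 3. The part of the makeup of the sample in this spread was not tested.

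*Mep1a* (ENSMUSG00000023914) ran from 657 to 1066 CPM in fl/fl and from 741 to 1180.3 CPM in ΔIEC mice (0.18, interval from -0.20 to 0.57), and *Pls1* (ENSMUSG00000049493) from 484 to 726 CPM and from 463 to 793 CPM (0.10, interval from -0.27 to 0.47). *Alpi* (ENSMUSG00000079440), with 43.6, 44.5, 43.6 and 66.2 CPM in fl/fl and 35.0, 54.6, 67.0 and 65.1 CPM in ΔIEC mice, differed by 0.16 (interval from -0.24 to 0.57). *Dpp4* (ENSMUSG00000035000) had 24.5, 29.4, 35.0 and 25.4 CPM in fl/fl and 39.1, 34.6, 29.2 and 28.8 CPM in ΔIEC mice (0.20, interval from -0.07 to 0.48). The intervals of these 4 genes leave out a change of 1 on the log2 scale in either direction, the size seen for MEP1A in ΔDNMT3A cells.

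For the low genes no such limit could be set. *Anpep* (ENSMUSG00000039062, chromosome 7 of GRCm38, 79821803 to 79861059, minus strand) had 2.45, 1.99, 12.9 and 7.20 CPM in fl/fl and 3.18, 5.35, 3.03 and 3.45 CPM in ΔIEC mice. The fl/fl libraries spread more widely than the difference between the groups (-0.72, interval from -1.72 to 0.29, edgeR adjusted p = 0.562), and without fl/fl replicate 2 the value was -1.01 (edgeR adjusted p = 0.306). *Treh* (ENSMUSG00000032098) had 5 to 20 counts per library and a log2 fold change of 0.40 (interval from -0.29 to 1.09), and shares its locus with *Phldb1* on the other strand. *Sis* had 36.0, 0.577, 42.3 and 17.8 CPM in fl/fl, where replicate 2 held 11 counts, and 23.9, 21.99, 28.3 and 26.3 CPM in ΔIEC mice. The log2 fold change was 0.05 (standard error 0.68, edgeR adjusted p = 0.984), and -0.35 without fl/fl replicate 2 (standard error 0.24, edgeR adjusted p = 0.491).

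**Figure D5:**
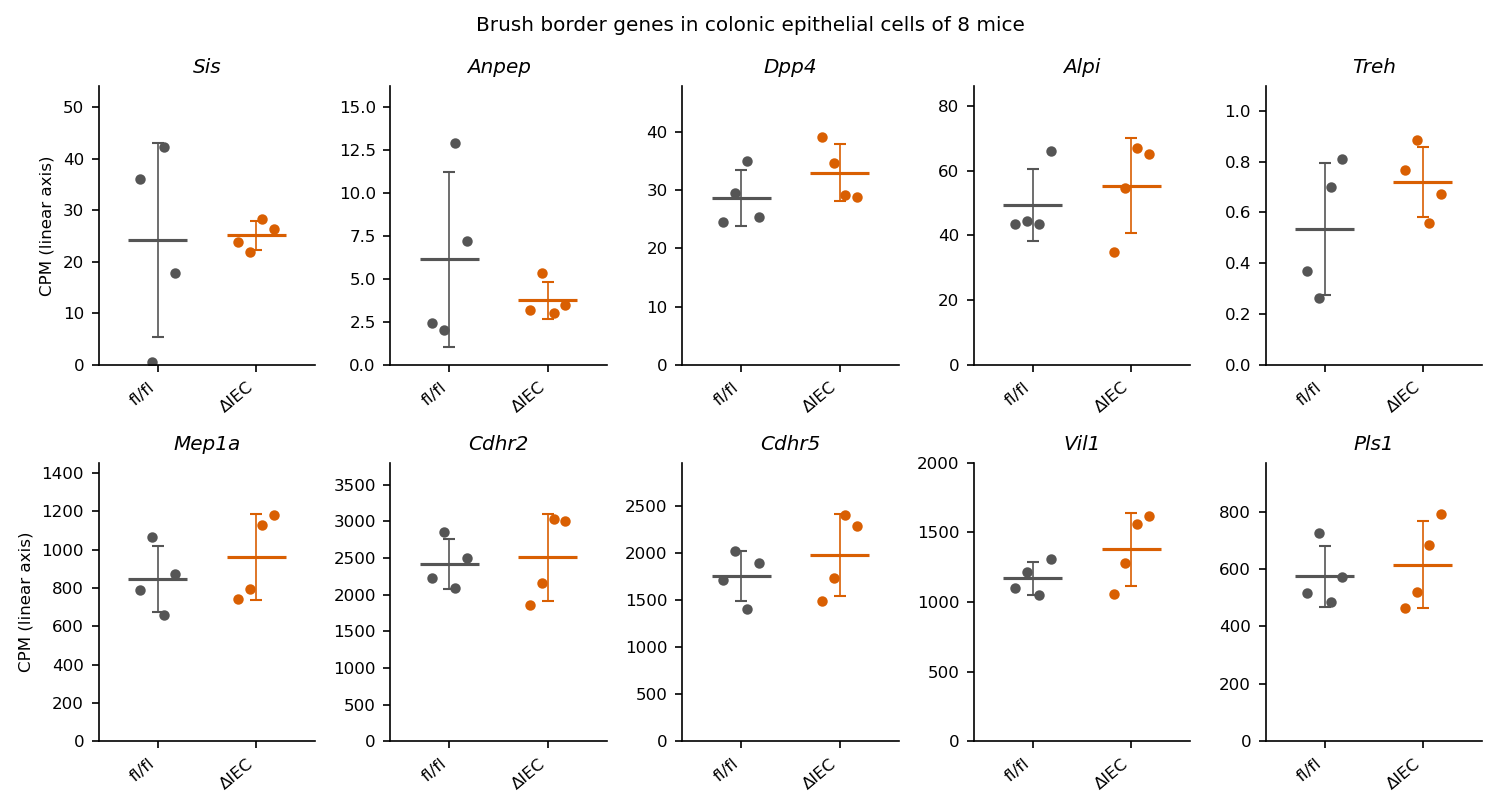
CPM (linear axis from 0) of the 9 genes and of *Sis* in colonic epithelial cells, with 4 animals in each genotype (*Dnmt3a* fl/fl on the left, ΔIEC on the right of each panel). Points are animals in replicate order, wide bars are means and whiskers are 1 SD. The groups overlap in every panel, and *Sis* of fl/fl replicate 2 lies at 0.577 CPM.

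Among the other brush border genes of the mouse, 0 of 12 tested hydrolases passed the threshold by edgeR (2 with unadjusted p under 0.05, and 2 by DESeq2), with *Ace* lowest at -0.31. Of 22 motor, scaffold and adhesion genes, 1 rose, *Calml4*, a light chain of the tip-link motor complex (0.46, edgeR adjusted p = 0.0427), and none fell; *Tmigd1* had the highest value (0.458, edgeR adjusted p = 0.398) and *Slk* the lowest (-0.25). Of the 8 regulators, 0 passed the threshold (0 with unadjusted p under 0.05 and 0 by DESeq2), with *Cdx2* highest at 0.33 and *Hnf4g* lowest at -0.13. Beside these values, the summed tuft cell markers were 31.07 to 40.26 CPM in fl/fl and 102.9 to 129.2 CPM in ΔIEC mice, with all 3 past the threshold, and the summed immune markers were 1.78 to 3.24 CPM and 3.98 to 5.50 CPM. Their part in the brush border values was not tested.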

How the data were processed

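RNA-seq of total RNA gave 75-base read pairs for 15 Caco-2 libraries and 50-base pairs for 8 mouse libraries, from a strand-marking kit. The authors trimmed reads with Trim Galore 0.4.4, aligned them with STAR 2.5.2b (GRCh38, GRCm38) and obtained counts for each gene from featureCounts (1.5.2 for Caco-2 on the reverse strand, 1.6.4 for mice without strand, per the file headers). The deposited values are raw counts. Here, the counts of the groups compared passed through filterByExpr and TMM, and edgeR 4.0.16 was used for testing (quasi-likelihood test, Benjamini-Hochberg adjustment over all genes tested, threshold 0.05) in R 4.3.3. DESeq2 1.42.0, which the study names, was an alternative. Tables and figures were made with Python 3.11.15, pandas, numpy and matplotlib, and the fits were tested on simulated data. Intervals of fitted values span 95%. The genes and the related lists were chosen with earlier results of these data known. Named were the 10 genes, the highest and lowest log2 fold change of each related list, and the 3 genes most like each of the 10; a few of these are not reported here. Symbols were matched for 98.1% of human identifiers. Replicates are libraries of a line or mice; for Caco-2, nothing says that they came from separate cultures, so p-values measure only the spread between libraries. File names put Caco-2 replicates 1 and 2 and replicates 3 and 4 on different lanes, and a lane term was an alternative.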

Additional observations from a re-analysis of the deposited data

Results flagged for a closer look

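In groups of 4 libraries, 48 combinations of gene and group were checked for a library whose gap to the next, divided by the range, exceeded Dixon's critical value, which chance gives in about 1 of 20. This held for 4: DPP4 in WT replicate 3 (374 CPM, against 378 to 379), ALPI in ΔDNMT3A replicate 3 (33.6 CPM, against 30.1 to 30.5), PLS1 in DNMT3A2 replicate 4 (42.1 CPM, against 37.4 to 37.7) and *Alpi* in *Dnmt3a* fl/fl replicate 4 (66.2 CPM, against 43.6 to 44.5).

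The isoform lines differed in their change from ΔDNMT3A for 9 genes, by the test of DNMT3A1 against the libraries labelled DNMT3A2 (edgeR). The log2 differences were 4.31 for SI, 2.85 for MEP1A, 2.71 for CDHR5, 2.25 for TREH, 1.59 for DPP4, 1.42 for ALPI, 1.03 for ANPEP, 0.27 for PLS1 and 0.17 for VIL1. Each line is a clone and DNMT3A RNA was no higher in the libraries labelled DNMT3A2 than in ΔDNMT3A, so isoform and clone cannot be told apart.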

How the results depend on the processing

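The 7 comparisons were refitted under each alternative. The count of genes past the threshold stayed within 1.5 times its value except when a log2 fold change of at least 1 was required as well. It then went from 8 to 2 in ΔDNMT3A against WT, from 9 to 5 in DNMT3A1 against ΔDNMT3A, from 10 to 5 in the libraries labelled DNMT3A2 against ΔDNMT3A, from 7 to 4 in DNMT3A1 against WT and from 10 to 4 in the libraries labelled DNMT3A2 against WT, by the construction of the rule. Leaving out a library gave 7 to 8, 6 to 9, 10, 7 to 8 and 9 to 10 genes in the same order, 9 in DNMT3A1 against DNMT3A2 and 0 in mice. Under the rule with a log2 fold change of at least 1, 1301 of 17029 genes were higher and 742 lower in DNMT3A1 against WT. In the libraries labelled DNMT3A2 against WT, 720 of 16360 genes were higher and 1098 lower by that rule.

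Same-numbered Caco-2 libraries deviated together weakly or not at all (correlations of deviations from -0.033 to 0.055 over 21 pairs, 0 over 0.1), so numbers were not taken as pairs. Still, 8 of 15 libraries were closest to a library of their own number, a count that was not set beside its chance value. With a replicate block, the counts were 9, 8, 10, 8, 10 and 9 in the 6 Caco-2 comparisons, in the same order. The block changed 3 calls: CDHR5 passed the threshold in ΔDNMT3A against WT (-0.09, edgeR adjusted p = 0.0467) and in DNMT3A1 against WT (0.12, edgeR adjusted p = 0.0447), and TREH no longer did in DNMT3A1 against ΔDNMT3A (0.45, edgeR adjusted p = 0.0797).

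Of 978 refitted values of single genes, 941 kept direction and call, 19 lost the call, 14 gained it and 4 reversed, all in mice with a library left out. These were *Cdhr2*, from -0.05 to 0.18 (-0.00864 without fl/fl replicate 3, -0.0459 without ΔIEC replicate 3 and -0.0414 without ΔIEC replicate 4), and *Pls1*, from -0.05 to 0.23 (-0.0481 without ΔIEC replicate 4). The cause was not tested. Depth limits TREH and CDHR2 in Caco-2 and *Treh* and *Anpep* in mice.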

Other observations

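Markers of the small intestine in Caco-2 cells were not part of the comparisons above. Of 5 listed, 4 were tested, and all 4 rose in ΔDNMT3A against WT (median log2 fold change 1.32), with FABP6, the ileal bile acid binding protein, highest at 1.47 and APOA1, an apolipoprotein, lowest at 0.32. In the libraries labelled DNMT3A2 against ΔDNMT3A all 4 fell (median -1.71), from -0.71 for FABP6 to -5.06 for LCT. In DNMT3A1 against ΔDNMT3A, 1 rose (APOA1, 0.77), 2 fell and 1 did not pass the threshold. Over all genes tested, 31.2% rose and 31.0% fell in ΔDNMT3A against WT. The shares were 33.8% and 34.1% in the libraries labelled DNMT3A2, and 30.4% and 30.3% in DNMT3A1, each against ΔDNMT3A. LCT stands in this list and among the hydrolases, so its values are counted in both.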
